A study of Homo sapiens with 60 samples.

Results

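The 10 genes described here are the 5 subunits of the transcription factor NF-kB (NFKB1, NFKB2, REL, RELA and RELB) and 5 inhibitors that restrain it (NFKBIA, NFKBIB, NFKBIE, TNFAIP3 and ZC3H12A). They were taken by symbol from a table of 60675 genes, and all 10 passed the filter on low counts that left 17256 genes for testing. A549 cells, an established human lung adenocarcinoma line, were treated for 24 h with hot-water plant extracts, and 60 RNA-seq libraries were made. The extracts were those of 2 single herbs, Menthae Herba and Saposhnikoviae Radix, and of the decoctions Okbyeongpung-san, Soyo-san, Guibi-tang and Saengmaek-san, with Soshiho-tang as the fifth. Each extract was given at 20, 100 and 500 µg/mL per the sample labels, called 20, 100 and 500 from here on. Per the series design text, an extract with an IC20 below 500 µg/mL was given at its IC20 and at dilutions of it, while the labels print the same doses for every extract. The vehicle was 0.1% DMSO per the sample labels and 2% DMSO per the design text. The vehicle and each dose of the 6 extracts other than Soshiho-tang had 3 libraries, and each dose of Soshiho-tang had 1, which allows no test. No label says if the 3 libraries of a group are separate cultures, and p-values therefore measure the spread between these libraries, which may be technical. The comparisons ask which of the 10 transcripts differ between the top and the bottom dose of an extract, between each of these doses and vehicle, and between extracts.

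NF-kB works as dimers of its subunits. In resting cells the IkB proteins, among them the products of NFKBIA, NFKBIB and NFKBIE, hold the dimers in the cytoplasm until a signal from a cytokine receptor or a danger receptor has the IkB protein degraded. Freed dimers bind kappaB sites in DNA and raise chemokine and cytokine genes in airway epithelial cells, and they also raise genes of their own inhibitors, which closes a feedback loop. NFKB1 and NFKB2 encode precursors that are processed to DNA-binding subunits without an activation domain, whereas RELA, RELB and REL carry one.

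Library totals ran from 18330592 to 35308791 expected counts. The mitochondrially encoded share of the counts shifted within the series: it averaged 16.1% ± 2.26 (SD) in the last 29 libraries in library order and 11.9% ± 0.746 (SD) in the first 31. The first 31 libraries hold vehicle, both herbs and part of Saengmaek-san and Guibi-tang, and the last 29 hold the rest of those and all of Soshiho-tang, Okbyeongpung-san and Soyo-san, so these last 3 extracts have no vehicle on their own side of this step. Only Saengmaek-san and Guibi-tang have libraries on both sides, so a fit with the step as a factor takes the size of the step from them. In Saengmaek-san the step sets replicate 3 apart from replicates 1 and 2. For Soyo-san and Okbyeongpung-san against vehicle that fit uses a step size measured in other extracts. In this fit, 43.7% of the 17256 genes differed across the step at an adjusted p under 0.05, and 6 of the 10 genes did. RELA was 0.28 ± 0.031 (log2, SE) higher after the step, TNFAIP3 0.21 ± 0.059 higher, NFKBIA 0.19 ± 0.028 higher and NFKBIB 0.11 ± 0.033 higher, while RELB fell by 0.27 ± 0.062 and NFKB1 fell by 0.12 ± 0.031. All 6 epithelial markers were above 1 CPM (counts scaled to the library total) in every library, with a sum of 6715 to 8477 CPM. Under 1 CPM in every library were 3 of 4 fibroblast markers (COL1A2, PDGFRB and DCN; list sum 26.0 to 41.1 CPM), the immune markers PTPRC and CD3E, and all 3 endothelial markers (PECAM1, VWF and CDH5; 0.0399 to 0.400 CPM). The fibroblast marker COL1A1 had 25.9 to 40.7 CPM, the macrophage marker CD68 6.63 to 19 CPM and LYZ at most 1.27 CPM.

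The promoters of the 4 genes with the most called changes among those with a sequence carry different numbers of kappaB motifs. The windows below are RefSeq sequences of build GRCh38.p14, each 250 bases before and 50 bases after an annotated start, 5′ to 3′ in the direction of transcription. Capitals mark matches on either strand to the standard kappaB consensus, with overlapping matches merged. TNFAIP3 lies at chr6:137867009-137867308 on the plus strand, NFKBIA at chr14:35404700-35404999 on the minus strand, NFKB2 at chr10:102394328-102394627 on the plus strand for the second of its 3 starts, and ZC3H12A at chr1:37474330-37474629 on the plus strand.
TNFAIP3: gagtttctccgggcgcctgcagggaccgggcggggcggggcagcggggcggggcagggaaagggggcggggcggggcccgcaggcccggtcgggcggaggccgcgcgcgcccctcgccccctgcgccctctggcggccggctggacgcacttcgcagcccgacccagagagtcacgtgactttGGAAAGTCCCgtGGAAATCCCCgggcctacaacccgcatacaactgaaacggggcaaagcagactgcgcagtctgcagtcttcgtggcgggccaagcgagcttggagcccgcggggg
NFKBIA: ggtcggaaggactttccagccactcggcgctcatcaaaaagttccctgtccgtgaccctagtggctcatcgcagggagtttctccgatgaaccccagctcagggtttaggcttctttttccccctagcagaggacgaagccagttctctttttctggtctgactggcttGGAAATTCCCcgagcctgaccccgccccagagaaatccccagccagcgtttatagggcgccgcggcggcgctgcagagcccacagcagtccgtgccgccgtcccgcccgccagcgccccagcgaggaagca
NFKB2: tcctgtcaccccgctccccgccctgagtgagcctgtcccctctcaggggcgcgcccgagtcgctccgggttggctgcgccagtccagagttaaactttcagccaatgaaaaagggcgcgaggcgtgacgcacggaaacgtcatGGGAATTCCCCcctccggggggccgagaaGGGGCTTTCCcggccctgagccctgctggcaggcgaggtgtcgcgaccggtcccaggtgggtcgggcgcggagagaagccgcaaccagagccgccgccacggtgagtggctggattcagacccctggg
ZC3H12A: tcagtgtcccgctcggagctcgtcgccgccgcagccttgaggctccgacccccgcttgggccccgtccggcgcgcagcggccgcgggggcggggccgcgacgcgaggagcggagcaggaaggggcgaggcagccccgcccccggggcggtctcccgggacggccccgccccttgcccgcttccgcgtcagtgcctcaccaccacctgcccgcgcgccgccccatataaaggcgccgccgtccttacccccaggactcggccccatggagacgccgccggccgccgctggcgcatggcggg
The TNFAIP3 window holds 2 separate matches, whose first bases lie 67 and 55 bases before the start. NFKBIA holds 1, beginning 81 bases before its start, and the NFKB2 window holds 3 matches in 2 places. ZC3H12A holds 0. Of the 10 genes, 8 had at least 1 promoter sequence, and 6 of these 8 held the consensus: TNFAIP3, NFKBIA, NFKBIB, NFKB2, NFKB1 and REL. The windows of RELA and ZC3H12A held no match, and no sequence was used for RELB and NFKBIE. Over 35116 promoter windows of the same length, 11.3% held the consensus, and over 27305 gene symbols 13.3% did. A looser pattern, GGGNNNNNCC on either strand, includes every consensus match and was present in all 8 genes with a window, against 58.7% of all windows and 61.7% of all gene symbols. These matches describe letters in the window and were not tested for binding.

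**Figure D1:**
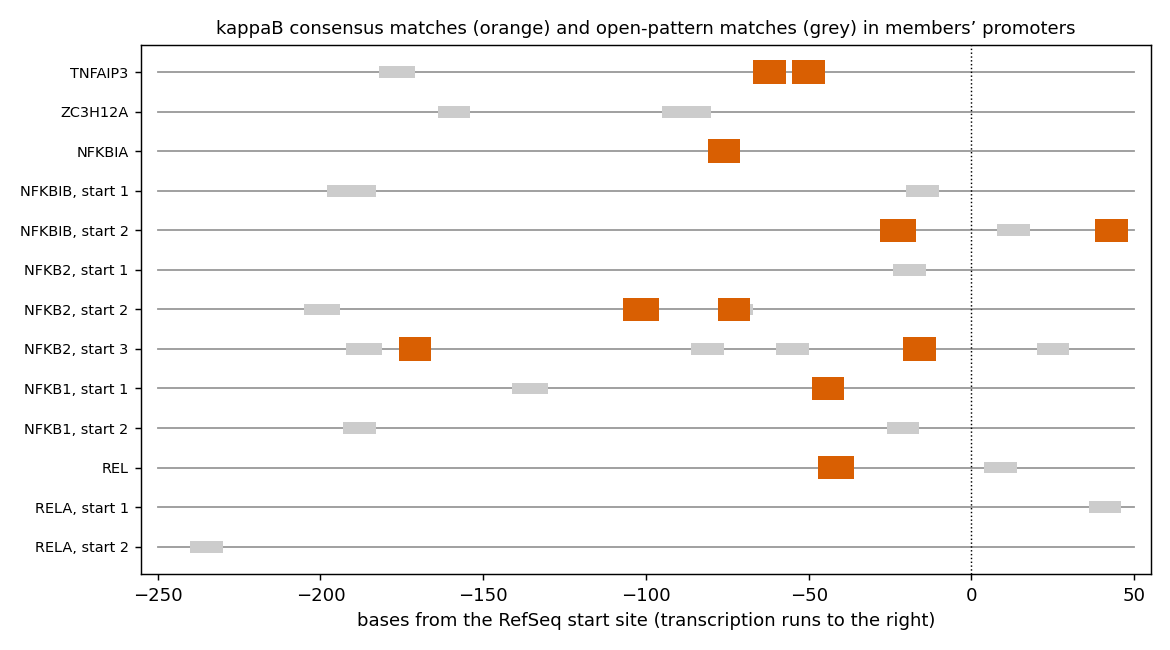
Position of kappaB consensus matches (orange) and of matches to the looser pattern (grey) in 13 promoter windows of 8 genes, in bases from the RefSeq start site. TNFAIP3, NFKBIA, NFKB1, REL and the later starts of NFKB2 and NFKBIB hold consensus matches, and ZC3H12A and RELA hold none.

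Per kilobase of merged exons, the 10 genes span a wide range of levels in vehicle. NFKBIB, an IkB protein, stood at 24.2 ± 0.481 CPM per kilobase (SD, n = 3), NFKBIA, the IkB protein of the fastest feedback loop, at 18 ± 0.507, and the main activating subunit RELA at 13.3 ± 0.391. NFKB2 followed at 10.9 ± 0.494, ZC3H12A at 5.09 ± 0.242, NFKB1 at 4.94 ± 0.211 and RELB at 4.64 ± 0.291. The lowest were REL at 2.51 ± 0.0999, NFKBIE at 2.10 ± 0.0957 and TNFAIP3 at 1.12 ± 0.0991. NFKBIB overlaps SIRT2 on the opposite strand and REL overlaps AC010733.2 on its own strand. Whether the counting used strand is not given in the sources used here, so the level of NFKBIB is uncertain. Strand cannot separate REL from AC010733.2, so the level of REL is uncertain with either kind of counting. From here on values are CPM of one gene compared between libraries.

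TNFAIP3 moved furthest. The gene lies at chr6:137867188-137883312 on the plus strand in the GENCODE 29 annotation of GRCh38, from which the positions of the other genes are also taken. It encodes a ubiquitin-editing enzyme that shuts off signalling from cytokine receptors to NF-kB, and it was higher at 500 of Guibi-tang, Soyo-san and Okbyeongpung-san than at 20 of the same extracts and than in vehicle. Guibi-tang at 500 gave 12.4, 12 and 12.8 CPM, against 6.35, 6.52 and 6.40 CPM at 20. Soyo-san at 500 gave 9.92, 11.2 and 12.4 CPM, against 6.47, 7.26 and 8.15 CPM at 20. Okbyeongpung-san at 500 gave 10.3, 11 and 10.5 CPM, against 6.68, 6.38 and 5.82 CPM at 20. In each of these extracts all 3 libraries at 500 lay above all 3 at 20, and all 9 lay above every other library of the series. Vehicle libraries had 5.13, 5.75 and 6.12 CPM. Both herbs and Saengmaek-san stayed between 5.20 and 7.23 CPM at every dose, a range that overlaps vehicle.

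In a single edgeR quasi-likelihood fit of the 57 replicated libraries, with Benjamini-Hochberg adjustment over all genes tested and calls at an adjusted p under 0.05, TNFAIP3 at 500 against 20 changed by a log2 fold change of 0.87 ± 0.105 (SE) for Guibi-tang (adjusted p = 1.5e-07), 0.61 ± 0.104 for Soyo-san (adjusted p = 2.89e-04) and 0.72 ± 0.107 for Okbyeongpung-san (adjusted p = 7.75e-05). The log2 fold changes of the other 3 extracts were 0.01 for Menthae Herba, 0.01 for Saposhnikoviae Radix and -0.03 for Saengmaek-san. Guibi-tang has libraries on both sides of the step in library order. TNFAIP3 at 500 against 20 was 0.87 among those before it, where the group at 20 holds only replicate 1. It was 0.97 among those after it, where the group at 500 holds only replicate 3. Each of these values rests on 1 library in a group. At 100 the 3 decoctions stood between their 20 and 500 groups, at 7.93 ± 0.311 CPM for Guibi-tang, 8.03 ± 0.468 CPM for Soyo-san and 7.94 ± 0.201 CPM for Okbyeongpung-san (SD, n = 3 each). At 100 against 20 TNFAIP3 and the other 9 genes passed in none of the 6 extracts. Of all genes tested 0.029% were called for Menthae Herba, 0.0058% for Guibi-tang, 0.0058% for Soyo-san and 0% for the other 3. An unadjusted p under 0.05 was reached by 4 of the 10 for Soyo-san, 2 for Okbyeongpung-san, 1 for Guibi-tang, 1 for Menthae Herba and 0 for the other 2, and DESeq2 called 0 in each. Of all 17256 genes, 548, 453, 627 and 553 reached that unadjusted p in the same order of extracts (edgeR).

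ZC3H12A passed the test in both directions. It lies at chr1:37474552-37484379 on the plus strand and encodes a ribonuclease that degrades messages of cytokines and of NFKBIZ. Menthae Herba at 500 gave 12.6, 13.0 and 11.1 CPM, against 16.6, 16.3 and 15.8 CPM at 20, and these were the 3 lowest of the 60 libraries. Guibi-tang at 500 gave 21.4, 22.2 and 20.5 CPM, against 16.3, 17.2 and 16.3 CPM at 20. Okbyeongpung-san at 500 gave 21.4, 20.9 and 20.4 CPM, against 15.1, 16.6 and 17.0 CPM at 20. Groups did not overlap in any of these 3 pairs, and vehicle had 16.6, 15.9 and 15.1 CPM. ZC3H12A fell at 500 of Menthae Herba by a log2 fold change of -0.42 ± 0.075 (SE, adjusted p = 1.81e-04, edgeR). It rose at 500 of Guibi-tang by 0.29 ± 0.070 (adjusted p = 0.0211) and of Okbyeongpung-san by 0.34 ± 0.071 (adjusted p = 0.0216). Leaving out any library of the 2 groups except Guibi-tang 20 replicate 2 ended the call for Guibi-tang, with adjusted p up to 0.134, and leaving out any except Okbyeongpung-san 20 replicate 3 ended it for Okbyeongpung-san, with adjusted p up to 0.543. A fit of the compared groups alone also ended both (adjusted p = 0.421 for Guibi-tang and 0.0839 for Okbyeongpung-san), and libraries after the step alone ended that for Okbyeongpung-san (adjusted p = 0.0921). Among Guibi-tang libraries before the step, with 1 library at 20, the value was 0.35. Among those after it, with 1 library at 500, the value was 0.28. Soyo-san at 500 gave 18.2, 19.1 and 20.2 CPM, against 16.3, 16.3 and 16.0 CPM at 20, a log2 fold change of 0.24 that did not pass (adjusted p = 0.16). Saengmaek-san at 500 gave 16.3, 15.1 and 15.5 CPM, against 20.1, 18.2 and 15.1 CPM at 20, and these groups overlap.

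NFKBIA (chr14:35401511-35404749, minus strand) lay above vehicle in every library of the 6 replicated extracts. Its product is the IkB protein that recaptures RELA dimers within the first wave of a response. Vehicle libraries had 43.4, 41.2 and 43.2 CPM, whereas the lowest of the 54 libraries of the 6 replicated extracts had 44.4 CPM and the highest 63.0 CPM, so all 54 lay above all 3 vehicle libraries. After TMM scaling 53 of the 54 did, and among the 28 extract libraries on the vehicle side of the step 28 did on totals and 27 after TMM scaling. No other of the 10 genes had all extract libraries on one side of vehicle. Over the 17256 genes tested, 0.348% had all 54 on one side on totals and 0.545% after TMM scaling, and 2.81% and 2.85% had all 28 on the vehicle side of the step there. REL had 43 of 54 above the vehicle range and 1 below, NFKBIE 41 and 5, TNFAIP3 40 and 0, and NFKBIB 7 and 36. For such partial counts, and for single groups of 3 that do not overlap, no share over all genes was computed.

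At 500, NFKBIA had 56.1, 59.0 and 63.0 CPM in Guibi-tang, 60.6, 61.2 and 58.7 CPM in Soyo-san and 61.4, 56.2 and 59.9 CPM in Okbyeongpung-san. Against vehicle it rose by a log2 fold change of 0.46 ± 0.066 (SE) for Guibi-tang (adjusted p = 3.95e-06, edgeR), 0.53 ± 0.065 for Soyo-san (adjusted p = 1.27e-07), 0.49 ± 0.066 for Okbyeongpung-san (adjusted p = 2.56e-06) and 0.26 ± 0.066 for Saengmaek-san (adjusted p = 0.0495). With the step as a factor the values were smaller by over 1.5 times for Soyo-san, 0.34 ± 0.053, and for Okbyeongpung-san, 0.29 ± 0.053, and both stayed called. The call for Saengmaek-san held without Saengmaek-san 500 replicate 2 and ended without any other library of the pair, with adjusted p up to 0.290, and under 3 of 9 other settings, with adjusted p up to 0.404. At 500 against 20 NFKBIA was called in none of the 6 extracts by edgeR, nor by DESeq2, with log2 fold changes between -0.16 and 0.14.

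The groups at 20 were therefore set against vehicle too, a comparison added after these values had been seen. NFKBIA was higher at 20 of Guibi-tang by 0.36 ± 0.066 (log2, SE, adjusted p = 0.00147, edgeR), of Soyo-san by 0.41 ± 0.066 (adjusted p = 2.96e-04), of Okbyeongpung-san by 0.35 ± 0.066 (adjusted p = 0.00213) and of Saengmaek-san by 0.30 ± 0.066 (adjusted p = 0.0198). At 20 of Menthae Herba it stood at 0.21 ± 0.066 (adjusted p = 0.166) and of Saposhnikoviae Radix at 0.22 ± 0.066 (adjusted p = 0.0952), and every library at 20 of these herbs lay above vehicle. With the step as a factor the values at 20 were 0.23 for Guibi-tang and 0.21 for Soyo-san, both called, and 0.15 for Okbyeongpung-san, which was no longer called (adjusted p = 0.0586). The call for Saengmaek-san ended without any library of the pair except 20 replicate 2, with adjusted p up to 0.155. In a fit of the compared groups alone the calls for Saengmaek-san and Guibi-tang ended (adjusted p = 0.230 and 0.126). TNFAIP3 was higher at 20 of Soyo-san by 0.40 ± 0.108 (adjusted p = 0.0408), a call that ended with the step as a factor (0.19, adjusted p = 0.369) and without any library of the pair except Soyo-san 20 replicate 1 (adjusted p up to 0.169). No other of the 10 genes was called at 20. Thus 2 genes were called for Soyo-san beside 1.99% of all genes tested, 1 for Guibi-tang beside 1.35%, 1 for Okbyeongpung-san beside 1.09%, 1 for Saengmaek-san beside 0.452%, 0 for Menthae Herba beside 0.382% and 0 for Saposhnikoviae Radix beside 0.991%. In each herb 2 of the 10 had an unadjusted p under 0.05, and DESeq2 called 0 for Menthae Herba and 1, NFKBIA, for Saposhnikoviae Radix. Of all 17256 genes, 1697 for Menthae Herba and 1978 for Saposhnikoviae Radix had an unadjusted p under 0.05 there (edgeR). All comparisons with vehicle share the same 3 vehicle libraries.

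The other 2 IkB proteins moved little with dose. NFKBIE had 7.86, 7.00 and 6.71 CPM at 500 of Menthae Herba and 6.90, 7.24 and 7.10 CPM at 500 of Guibi-tang, against 5.20, 5.41 and 5.69 CPM in vehicle. Neither treated group overlapped vehicle, and NFKBIE rose against vehicle by 0.36 ± 0.104 (log2, SE, adjusted p = 0.0233, edgeR) for Menthae Herba and 0.36 ± 0.105 (adjusted p = 0.034) for Guibi-tang. The call for Menthae Herba held without vehicle replicate 3 or 500 replicate 3 and ended without any other library (adjusted p up to 0.166), and that for Guibi-tang ended without any of the 6 libraries (adjusted p 0.0503 to 0.131). Without the filter on low counts both ended, with adjusted p of 0.0644 for Menthae Herba and 0.103 for Guibi-tang. That for Guibi-tang also ended with total counts (adjusted p = 0.0731) and in a fit of the compared groups alone (adjusted p = 0.0997). NFKBIE at 20 of Menthae Herba was as high as at 500, at 7.15 ± 0.224 CPM against 5.43 ± 0.247 CPM in vehicle (SD, n = 3 each), and did not pass there (adjusted p = 0.102). NFKBIB, counted together with any reads of SIRT2 in their overlap, ran from 47.1 to 61.2 CPM over all libraries and passed no comparison in the fit of 57 libraries. Before the step alone it was called lower at 500 of Saengmaek-san against vehicle (-0.18, adjusted p = 0.0476), and with the step as a factor at 20 of Soyo-san against vehicle (-0.20, adjusted p = 0.0439).

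**Figure D2:**
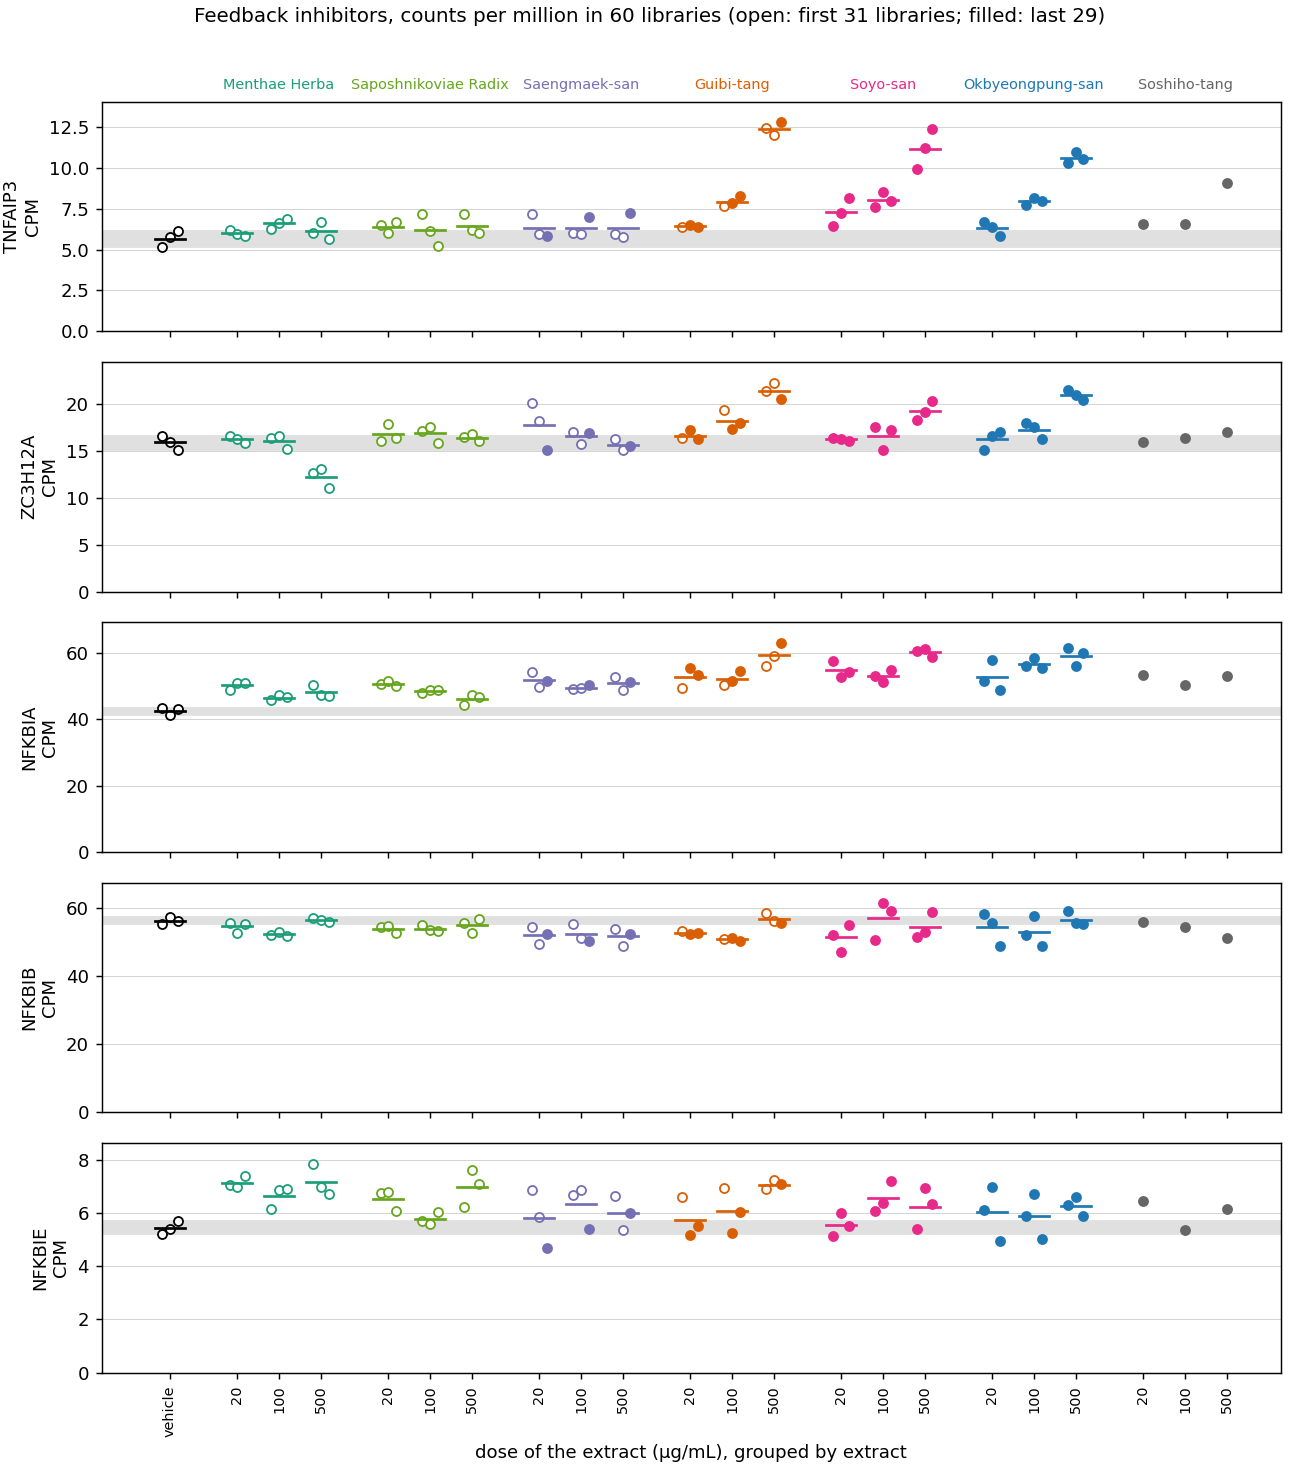
CPM of the 5 inhibitors in each of 60 libraries, by extract and dose in µg/mL, with the mean of each group of 3 as a line and the vehicle range as a grey band; open points are the first 31 libraries in library order and filled points the last 29. TNFAIP3 reaches 9.92 to 12.8 CPM at 500 of Guibi-tang, Soyo-san and Okbyeongpung-san, ZC3H12A is lowest at 500 of Menthae Herba, and NFKBIA lies above the vehicle band in every extract group.

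The subunits varied less than TNFAIP3. RELB (chr19:45001430-45038198, plus strand), the partner of NFKB2 in the slower, non-canonical branch, had 14.8, 17.3 and 20.2 CPM at 500 of Soyo-san, against 12.6, 12 and 13.1 CPM at 20. These groups did not overlap, and RELB rose by 0.46 ± 0.115 (log2, SE, adjusted p = 0.0407, edgeR). The call held without Soyo-san 500 replicate 1 and ended without any other library of the 2 groups, with adjusted p up to 0.363. It also ended with total counts, after the step alone and in a fit of the compared groups alone, with adjusted p of 0.186, 0.0869 and 0.092. Soyo-san at 20 averaged 12.6 CPM, against 14.1 CPM in vehicle, and those groups overlapped. Soyo-san at 500 lay above vehicle by 0.34 ± 0.111 (adjusted p = 0.0536), which did not pass; with the step as a factor the value was 0.61 (adjusted p = 1.39e-04), called. Guibi-tang at 500 had 19, 18.4 and 14.6 CPM, against 14.5, 10.5 and 11.6 CPM at 20, and the value of 0.43 ± 0.116 did not pass (adjusted p = 0.0547). The Guibi-tang groups are split unevenly by the step, with 2 of 3 libraries before it at 500 and 1 of 3 at 20, and RELB is one of the genes that differ across it. With the step as a factor the value was 0.34 ± 0.099 (adjusted p = 0.0776), while DESeq2 (adjusted p = 0.0285) and a fit without the filter called it. Okbyeongpung-san at 500 had 17.0, 15.7 and 16.7 CPM, against 14.7, 15.4 and 11.2 CPM at 20 and 13.1, 14.4 and 14.8 CPM in vehicle. Its libraries at 500 lay above both, and neither comparison passed.

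NFKB2 (chr10:102394110-102402529, plus strand) has a product that is processed into the partner of RELB. In the fit of 57 libraries it passed against vehicle and not against 20. Soyo-san at 500 had 51.6, 61.7 and 60.9 CPM and Okbyeongpung-san at 500 had 54.9, 62.3 and 59.1 CPM, against 48.4, 47.2 and 51.5 CPM in vehicle. The 3 libraries of each extract lay above vehicle, replicate 1 of Soyo-san by little, and the log2 fold changes were 0.28 ± 0.062 (SE, adjusted p = 0.00353, edgeR) and 0.28 ± 0.062 (adjusted p = 0.00567). The call for Okbyeongpung-san ended without vehicle replicate 2 or without 500 replicate 2 (adjusted p up to 0.0607), and both ended when libraries were scaled to total counts (adjusted p = 0.063 for Soyo-san and 0.0631 for Okbyeongpung-san). Against 20 NFKB2 stood at 0.22 (adjusted p = 0.11) for Soyo-san and 0.28 (adjusted p = 0.0639) for Okbyeongpung-san.

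NFKB1, the partner of RELA in the common dimer, passed in 1 comparison. Menthae Herba at 500 had 36.6, 36.7 and 36.0 CPM, against 32.1, 31.2 and 29.5 CPM in vehicle, with no overlap and a rise of 0.20 ± 0.057 (log2, SE, adjusted p = 0.0249, edgeR). That call held without vehicle replicate 1 or 500 replicate 3 and ended without any other library, with adjusted p up to 0.126, and without the filter or with total counts, with adjusted p up to 0.0943. Saposhnikoviae Radix at 500 had 36.3, 34.6 and 36.2 CPM and did not pass (0.16, adjusted p = 0.133). With the step as a factor NFKB1 was also called at 500 of Saposhnikoviae Radix, Guibi-tang, Soyo-san and Okbyeongpung-san against vehicle, at 0.17, 0.17, 0.23 and 0.17. REL, a subunit with a strong activation domain best known in lymphocytes, had 37.0, 46.0 and 39.5 CPM at 500 of Guibi-tang and 37.3, 41.0 and 40.9 CPM at 500 of Okbyeongpung-san, against 31.8, 33.1 and 34.4 CPM in vehicle. Neither group overlapped vehicle, and the values of 0.29 ± 0.100 (adjusted p = 0.0964) and 0.28 ± 0.099 (adjusted p = 0.115) did not pass. Without the filter on low counts both were called (adjusted p = 0.00209 and 0.00239), and Guibi-tang was called before the step alone (0.28, adjusted p = 0.00793). RELA ran from 68.2 to 83.3 CPM over the 60 libraries and REL from 25.3 to 46.0 CPM, and neither passed any comparison in the fit of 57 libraries. The lowest REL value was Okbyeongpung-san 100 replicate 2, whose 2 companions had 36.6 and 40.0 CPM.

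**Figure D3:**
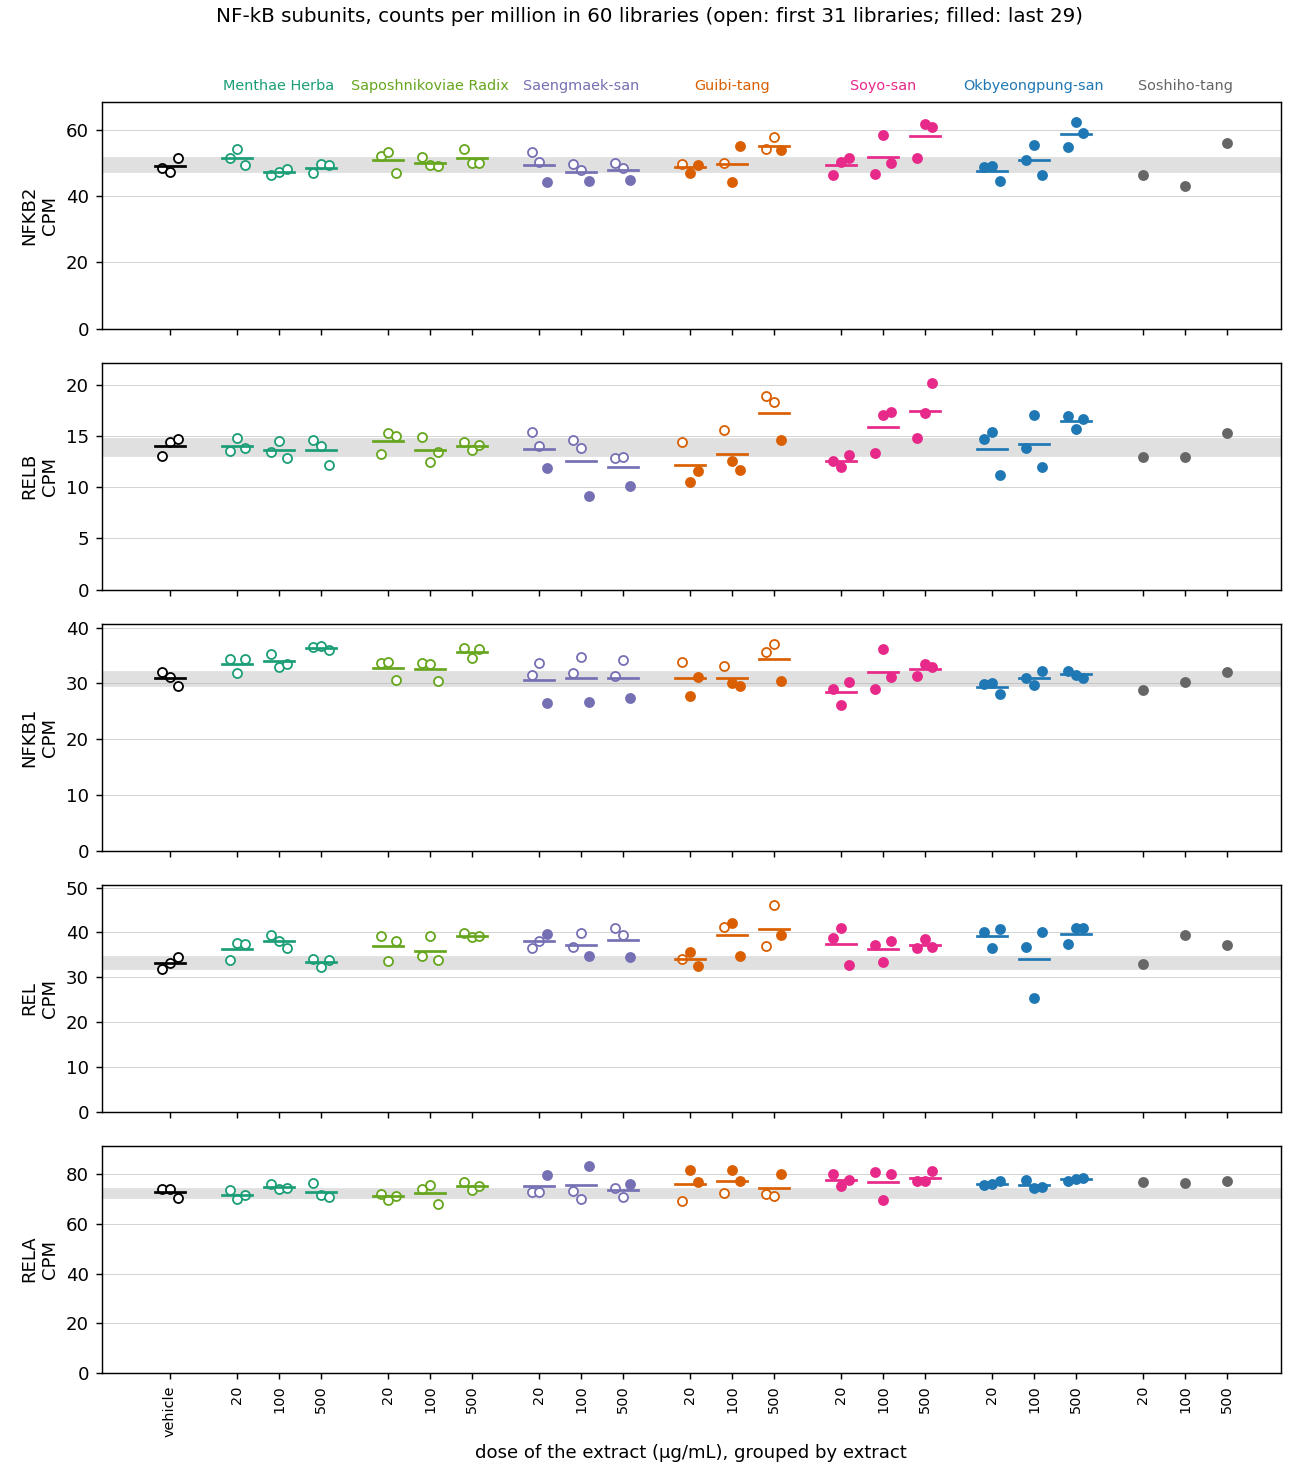
CPM of the 5 subunits in each of 60 libraries, drawn as for the inhibitors: lines are means of 3 libraries, the grey band is the vehicle range, open points are the first 31 libraries and filled points the last 29. RELB reaches 20.2 CPM at 500 of Soyo-san, NFKB2 reaches 62.3 CPM at 500 of Okbyeongpung-san, and RELA stays between 68.2 and 83.3 CPM.

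Counted over both classes at 500 against 20, 2 of the 10 genes rose for Guibi-tang (TNFAIP3 and ZC3H12A), 2 for Soyo-san (TNFAIP3 and RELB) and 2 for Okbyeongpung-san (TNFAIP3 and ZC3H12A), and 1 fell for Menthae Herba (ZC3H12A). Of all 17256 genes tested, 0.997% were called for Guibi-tang, 0.614% for Soyo-san, 0.0985% for Okbyeongpung-san and 2.43% for Menthae Herba. For Saposhnikoviae Radix and Saengmaek-san 0 of the 10 were called, beside 0.0811% and 0% of all genes, 1 of the 10 had an unadjusted p under 0.05 in each, and DESeq2 called 0. Of all 17256 genes, 615 and 469 had an unadjusted p under 0.05 there (edgeR). At 500 against vehicle 4 of the 10 rose for each of Guibi-tang, Soyo-san and Okbyeongpung-san, beside 4.42%, 6.03% and 3.39% of all genes called. These counts moved to 7 of the 10 in 3 other fits. For Guibi-tang in libraries before the step, the side that holds vehicle, NFKB1, REL and RELB were added, beside 10.5% of all genes called. For Soyo-san and for Okbyeongpung-san in a fit of the compared groups alone, REL, RELA and RELB were added, beside 13.3% and 17.8% of all genes called. Menthae Herba had 2 higher and 1 lower beside 6.77%, Saengmaek-san 1 higher beside 0.614%, and Saposhnikoviae Radix 0 beside 1.56%, with 3 at an unadjusted p under 0.05 and 0 called by DESeq2. For Saposhnikoviae Radix at 500 against vehicle, 2400 of all 17256 genes had an unadjusted p under 0.05 (edgeR). TNFAIP3 rose by 1.10 ± 0.103 (log2, SE) for Guibi-tang (adjusted p = 1.36e-10, edgeR), 1.01 ± 0.103 for Soyo-san (adjusted p = 1.46e-09) and 0.92 ± 0.104 for Okbyeongpung-san (adjusted p = 5.21e-08). With the step as a factor these values were 1.04, 0.80 and 0.71, all called. ZC3H12A changed by 0.41 ± 0.069 for Guibi-tang (adjusted p = 7.56e-05), 0.31 ± 0.069 for Soyo-san (adjusted p = 0.0035), 0.41 ± 0.069 for Okbyeongpung-san (adjusted p = 1.34e-04) and -0.41 ± 0.073 for Menthae Herba (adjusted p = 1.29e-04). The groups at 500 are shared between the comparisons with 20 and those with vehicle, so the 2 sets of calls are not independent.

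**Figure D4:**
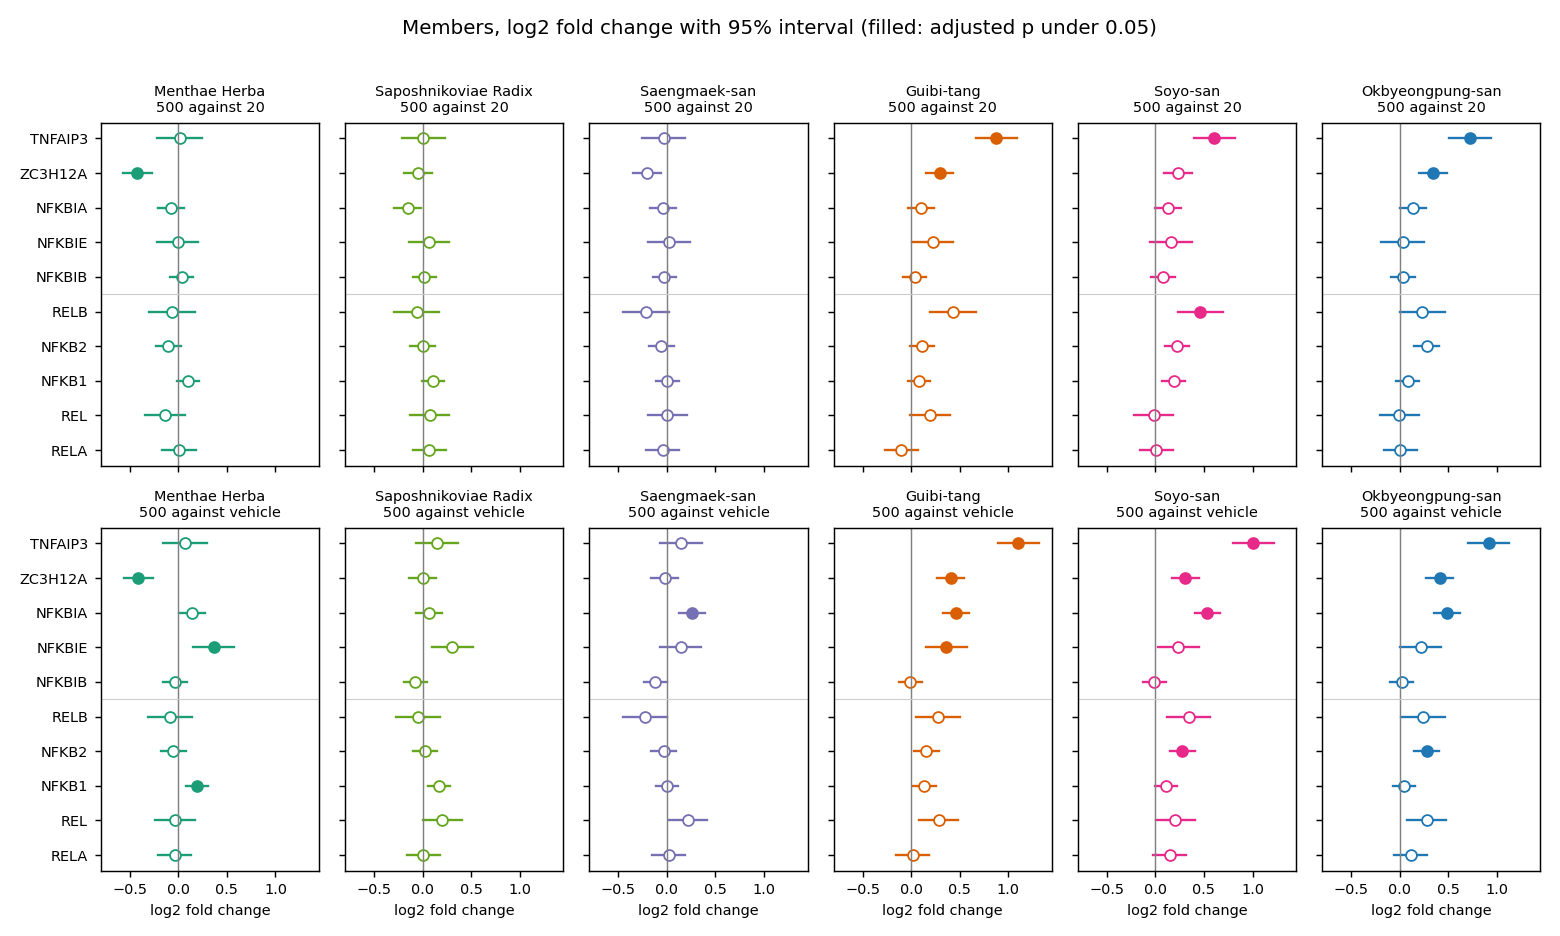
Log2 fold change with its 95% interval for the 10 genes at 500 against 20 (top) and at 500 against vehicle (bottom) in 6 extracts, inhibitors above the grey line and subunits below it; filled points passed at an adjusted p under 0.05. TNFAIP3 stands furthest right for Guibi-tang, Soyo-san and Okbyeongpung-san, at 0.61 to 0.87 against 20, and ZC3H12A stands at -0.42 for Menthae Herba.

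Summed over the class, the 5 inhibitors reached 156.8 ± 1.9 CPM at 500 of Guibi-tang, 151.1 ± 5.4 CPM at 500 of Soyo-san and 153.4 ± 4.3 CPM at 500 of Okbyeongpung-san, against 125.8 ± 0.4 CPM in vehicle (SD, n = 3 each). The 5 subunits reached 222.2 ± 7.1, 224.0 ± 11 and 224.7 ± 5.2 CPM in the same groups, against 200.0 ± 0.5 CPM in vehicle. Lying wholly above vehicle was common to most extract groups: of the 18 replicated groups 16 did in the inhibitor sum and 15 in the subunit sum. In both sums these 3 groups had the highest means, and the next was Soyo-san 100 at 141.1 CPM for the inhibitors and Saposhnikoviae Radix 500 at 215.9 CPM for the subunits. The sums are weighted to the genes with the most counts, NFKBIA and NFKBIB among inhibitors and RELA and NFKB2 among subunits, and carry no test. This weight is one of level and not of rise. NFKBIB averaged 56.7 CPM at 500 of Guibi-tang, 54.4 of Soyo-san and 56.5 of Okbyeongpung-san, against 56.2 CPM in vehicle.

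The difference between extracts in the dose change was tested for 6 pairs of extracts. Guibi-tang and Saengmaek-san differed for 2 of the 10 genes, beside 0.296% of all genes: TNFAIP3 by 0.91 ± 0.153 (log2, SE, adjusted p = 5.29e-04, edgeR) and ZC3H12A by 0.50 ± 0.100 (adjusted p = 0.00584). Both extracts have libraries on both sides of the step. Among those before it, with 1 library at 20 of Guibi-tang, TNFAIP3 differed by 1.06 and ZC3H12A by 0.66. Among those after it the values were 0.67 and 0.25. There Guibi-tang has 1 library at 500, and Saengmaek-san has 1 at each dose. The call of ZC3H12A ended without Saengmaek-san 20 replicate 1 (adjusted p = 0.09), the highest of its group at 20.1 CPM. Both calls ended in a fit of the compared groups alone, with adjusted p of 0.16 for TNFAIP3 and 0.315 for ZC3H12A. Soyo-san and Menthae Herba differed for ZC3H12A by 0.66 ± 0.103 (adjusted p = 1.31e-04), 1 of the 10 genes beside 0.296% of all genes. For the other 4 pairs 0 of the 10 were called by edgeR, and 4 had an unadjusted p under 0.05 for Okbyeongpung-san and Saposhnikoviae Radix, 1 for Menthae Herba and Saposhnikoviae Radix and 0 for the other 2. Of all 17256 genes, 510 for Okbyeongpung-san and Saposhnikoviae Radix and 923 for Menthae Herba and Saposhnikoviae Radix had such an unadjusted p. DESeq2 called 1, TNFAIP3, for Okbyeongpung-san and Saposhnikoviae Radix and 0 for the rest. The share of all genes called was 0.0464% for Okbyeongpung-san and Saposhnikoviae Radix, 0.122% for Guibi-tang and Soyo-san, 0.029% for Soyo-san and Okbyeongpung-san and 0.197% for Menthae Herba and Saposhnikoviae Radix. TNFAIP3 differed between Okbyeongpung-san and Saposhnikoviae Radix by 0.72, with a 95% interval of 0.40 to 1.03 (adjusted p = 0.0539). Among the 3 decoctions that raised it, the difference was 0.27 for Guibi-tang and Soyo-san, with an interval of -0.03 to 0.56, and -0.12 for Soyo-san and Okbyeongpung-san, with an interval of -0.42 to 0.18. These intervals do not show that the 3 act alike.

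Ordered by mean level over the 19 replicated groups, TNFAIP3 was led by Guibi-tang 500 at 12.4 CPM, Soyo-san 500 at 11.2 CPM and Okbyeongpung-san 500 at 10.6 CPM. The libraries of these 3 groups overlapped from one to the next, and those of Okbyeongpung-san 500 lay wholly above the next, Soyo-san 100 at 8.03 CPM. No later neighbours were apart, down to vehicle at 5.67 CPM. In ZC3H12A the libraries of neighbours were apart at 2 points, between Okbyeongpung-san 500 at 20.9 CPM and Soyo-san 500 at 19.2 CPM and between Saengmaek-san 500 at 15.6 CPM and the last, Menthae Herba 500 at 12.2 CPM. In NFKBIA they were apart between Saengmaek-san 100 at 49.5 CPM and Saposhnikoviae Radix 100 at 48.5 CPM, and between Saposhnikoviae Radix 500 at 46.1 CPM and the last, vehicle at 42.6 CPM. The first of these NFKBIA gaps, 1.07 CPM, is below the SD pooled over groups of 2.15 CPM, and the second is 3.53 CPM. In the other 7 genes no neighbours were apart. How often neighbours lie apart over all genes was not counted, and the order carries no test.

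Other parts of the pathway were counted at 500 against 20 with the same edgeR calls. Of all genes tested, 0.997% were called there for Guibi-tang, 0.614% for Soyo-san, 0.0985% for Okbyeongpung-san and 2.43% for Menthae Herba. Of 37 receptor and signalling genes listed, 34 passed the filter and 1 was called: IRAK2, a kinase that relays interleukin and Toll-like receptor signals, rose by 0.79 (log2) for Guibi-tang, 0.44 for Soyo-san and 0.48 for Okbyeongpung-san. The median change of the list was 0.04 for Guibi-tang, 0.01 for Soyo-san and 0.03 for Okbyeongpung-san. The median over all genes tested was 0.00 in every comparison at 500 against 20. Of 16 other inhibitors and atypical IkB proteins, 16 passed the filter and 3 rose for Guibi-tang, NLRC5 by 0.52, NFKBIZ by 0.47 and BIRC3 by 0.31. For Soyo-san 2 rose, NFKBIZ by 0.47 and BIRC3 by 0.41, and for Okbyeongpung-san 0 did. NFKBIZ encodes an atypical IkB protein that works in the nucleus, and BIRC3 a ubiquitin ligase of the receptor complexes. The median of this list was 0.09 for Guibi-tang, 0.10 for Soyo-san and 0.06 for Okbyeongpung-san. None of these genes was called for Menthae Herba, Saposhnikoviae Radix or Saengmaek-san.

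Of 32 textbook NF-kB targets, 19 passed the filter, and 12 rose for Guibi-tang, 13 for Soyo-san and 10 for Okbyeongpung-san, with 0 lower. The list's median was 0.86 for Guibi-tang, 1.12 for Soyo-san and 0.80 for Okbyeongpung-san. For Guibi-tang the largest were LCN2, an iron-binding defence protein, at 2.25, the neutrophil chemokines CXCL8 at 1.83 and CXCL1 at 1.70, and the complement factor CFB at 1.31. For Soyo-san they were CXCL8 at 2.29, the cytokine LTB at 2.10, CXCL1 at 2.01 and CFB at 1.88, and for Okbyeongpung-san CXCL1 at 1.82, CXCL8 at 1.67, CFB at 1.47 and CXCL3 at 1.06. For Menthae Herba 2 of the 19 fell, PTGS2, the inducible prostaglandin synthase, by 0.85 and the chemokine CXCL5 by 0.50, and 0 rose. For Saposhnikoviae Radix and Saengmaek-san 0 of the 19 were called. These counts include only genes that passed the filter, and a gene that is high in 1 group alone can pass because of that group.

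Against vehicle at 500, MAP3K14, the kinase that starts the non-canonical branch, fell by 0.20 for Guibi-tang, by 0.32 for Soyo-san and by 0.26 for Okbyeongpung-san. Soyo-san and Okbyeongpung-san have no vehicle on their side of the step. For genes of these lists no value with the step as a factor was taken. At 500 against 20, 0 genes of the receptor and signalling list fell in these extracts. At 20 against vehicle, 1 gene of the list fell for each of Guibi-tang, Okbyeongpung-san and Saposhnikoviae Radix. The share of all genes called there was 1.35%, 1.09% and 0.991% in that order. MAP3K14 was the only gene of its list that fell at 500 of the 3 decoctions against vehicle. In the same comparisons 3, 1 and 2 of the 34 genes tested from the list rose, IRAK2 among them each time. Of all genes tested, 4.42% were called for Guibi-tang, 6.03% for Soyo-san and 3.39% for Okbyeongpung-san. The list as a whole was not tested against these shares. For Guibi-tang the others were RBCK1 at 0.20 and RNF31 at 0.16, and for Okbyeongpung-san SHARPIN at 0.25, 3 genes of the linear ubiquitin ligase complex. For Menthae Herba TNFRSF11A, a receptor, rose by 0.54 and IKBKB, a kinase that marks IkB proteins for degradation, by 0.23. These are 2 of the 34 genes, in a comparison that called 6.77% of all genes. Of the 16 other inhibitors and atypical IkB proteins, 4 rose for Guibi-tang, 5 for Soyo-san and 4 for Okbyeongpung-san, beside the same shares of all genes. At 20 against vehicle 2 of the 16 rose for Guibi-tang. There 1 rose for each of Soyo-san, Okbyeongpung-san, Saposhnikoviae Radix and Saengmaek-san. NFKBIZ rose by 0.74 for Guibi-tang, 0.78 for Soyo-san and 0.60 for Okbyeongpung-san, and BIRC3 by 0.49, 0.61 and 0.38 in the same order. BCL3, another nuclear IkB protein, rose by 0.31, 0.39 and 0.36. ZC3H12C, a relative of ZC3H12A, rose by 0.35 for Guibi-tang, and TNFAIP8 by 0.38 for Soyo-san, 0.35 for Okbyeongpung-san and 0.21 for Menthae Herba.

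The genes whose 12 changes (100 against 20 and 500 against 20 in each of 6 extracts) lay nearest to those of TNFAIP3, among 10911 genes with a mean of at least 5 CPM, were C1QTNF1, C3 and IRAK2, with root mean square differences of 0.128, 0.130 and 0.142 on the log2 scale. Those nearest to RELB were ASS1, NFKBIZ and BIRC3, at 0.0656, 0.0900 and 0.0987. The root mean square of the member's own 12 changes was 0.395 for TNFAIP3 and 0.230 for RELB. The 12 changes share the group at 20 within an extract and the libraries' depth, and carry no test.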

How the data were processed

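RNA-seq libraries of treated and vehicle A549 cells were deposited as 1 table of expected counts. The authors made these expected counts with RSEM 1.3.3 after STAR 2.7.3a alignment, with Trim Galore 0.6.5 and FastQC 0.11.9, per the submitters' processing notes. Of the deposited values 10.5% were not whole, and all were rounded. CPM were computed on library totals, mitochondrial counts included. Ensembl IDs were matched to current symbols (56558) or to GENCODE 29 symbols alone (497), and 3620 had none. The model was fitted with edgeR 4.0.16 (R 4.3.3) on 57 libraries with TMM scaling, filterByExpr by group and quasi-likelihood tests, with p adjusted per comparison over 17256 genes. Library pairs within groups differed beyond sampling noise (chi-square per degree of freedom 1.87 to 73.1), so none was merged. Alternatives were DESeq2 1.42.0, other scalings and filters, the replicate block, the step, the compared groups alone and leave-one-out fits. Same-numbered libraries deviated together, by the data, in Saengmaek-san 500 against 20 (r 0.117 to 0.345), Saengmaek-san 100 against 20 (0.128 to 0.350) and Guibi-tang 100 against 20 (0.104 to 0.358). In each of these comparisons same-numbered libraries also lie on the same side of the step, and pairing apart from the step was not tested. The members, the lists and the tests were chosen with earlier results of these data known. The rule set all 10 genes for naming; per comparison the text gives those called or apart and the others by counts and ranges. Pathway genes are named by the up to 4 largest called changes of a list and nearest genes by root mean square difference. Wortmannin and ethanol extracts were not analysed here. The immune marker list as a whole and the genes nearest to ZC3H12A are not reported here.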

Additional observations from a re-analysis of the deposited data

Results flagged for a closer look

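The dose change (500 against 20) differed between extracts in 3 tested results. TNFAIP3 differed between Guibi-tang and Saengmaek-san by 0.91 on the log2 scale, and ZC3H12A by 0.50 between the same extracts. ZC3H12A differed between Soyo-san and Menthae Herba by 0.66.

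Soshiho-tang has 1 library per dose and entered no test. Its library at 500 had 9.08 CPM of TNFAIP3, above the highest of 9 libraries at 20 on the same side of the step in library order (8.15 CPM) and above the highest vehicle library (6.12 CPM). At 20 and 100 it had 6.59 and 6.56 CPM. The same library had 56.0 CPM of NFKB2, against at most 51.5 CPM in those 9 libraries and at most 51.5 CPM in vehicle. Its ZC3H12A stood at 15.9, 16.3 and 16.9 CPM at 20, 100 and 500, within the range of those 9 libraries, 15.1 to 17.2 CPM. Its NFKBIA stood at 53.3, 50.4 and 52.9 CPM, above vehicle at every dose and within the range of those 9 libraries, 48.8 to 57.9 CPM. No replicate checks these values.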

How the results depend on the processing

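Of 475 values of called genes under an alternative, 400 kept their call, 75 lost it and 0 reversed. TNFAIP3 at 500 against 20 and against vehicle in Guibi-tang, Soyo-san and Okbyeongpung-san, and ZC3H12A at 500 in both comparisons of Menthae Herba, kept their calls in every alternative run that left over 1 library in each group. The counts of called genes that moved were as follows; the cause was not tested. Over the comparisons each setting allows, the share of all genes called reached 6.77% in the fit of 57 libraries, 3.42% without the filter, 12.5% with the step as a factor, 15.2% before the step, 0.443% after it, 18.9% with the compared groups alone and 5.07% with total counts.

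Without the filter the count was 1 at 500 of Menthae Herba against vehicle (3 as reported), 2 for the difference of Soyo-san and Menthae Herba (1), 1 for Okbyeongpung-san and Saposhnikoviae Radix (0), 1 at 20 of Saposhnikoviae Radix (0) and 2 at 20 of Okbyeongpung-san (1), both against vehicle. The shares of all genes called in these 3 comparisons with vehicle were 2.84%, 0.819% and 1.42%. In the fit of 57 libraries they were 6.77%, 0.991% and 1.09%. With the step as a factor it was 1 at 500 of Saposhnikoviae Radix (0), 2 and 2 for those differences, and 2 and 1 at 20 of Menthae Herba and Saposhnikoviae Radix (0 each). The shares of all genes called with the step were 5.8% at 500 of Saposhnikoviae Radix and 1.72% and 3.23% at 20 of the herbs. In the fit of 57 libraries they were 1.56%, 0.382% and 0.991%. In libraries before the step it was 3, 2 and 7 at 500 of Saposhnikoviae Radix, Saengmaek-san (1) and Guibi-tang (4) against vehicle. At 20 of the herbs it was 2 and 1 there. The shares of all genes called before the step were 9.39%, 2.13% and 10.5% at 500 of Saposhnikoviae Radix, Saengmaek-san and Guibi-tang. In the fit of 57 libraries they were 1.56%, 0.614% and 4.42%. At 20 of Menthae Herba and Saposhnikoviae Radix they were 4.14% and 5.97% before the step. In libraries after the step the count was 1 for each of Soyo-san and Okbyeongpung-san at 500 against 20 (2 each). The shares there were 0.443% and 0.0748%, against 0.614% and 0.0985% in the fit of 57 libraries. On either side of the step alone, Guibi-tang against 20 and its difference with Saengmaek-san have a group of 1 library, so no counts are given for them. With the compared groups alone it was 3, 0, 7 and 7 at 500 of Saposhnikoviae Radix, Saengmaek-san, Soyo-san (4) and Okbyeongpung-san (4) against vehicle, 1 and 1 at 500 of Guibi-tang and Soyo-san against 20, 0 for Guibi-tang and Saengmaek-san, and 2 and 2 at 20 of Menthae Herba and Okbyeongpung-san, 1 at 20 of Saposhnikoviae Radix and 0 at 20 of Guibi-tang (1) and of Saengmaek-san (1). In these fits the shares of all genes called at 500 against vehicle were 13.6%, 0%, 13.3% and 17.8% in the same order. In the fit of 57 libraries they were 1.56%, 0.614%, 6.03% and 3.39%. At 500 of Guibi-tang and Soyo-san against 20 the shares were 0.0893% and 0.216%. At 20 they were 5.85% for Menthae Herba, 5.86% for Okbyeongpung-san and 7.51% for Saposhnikoviae Radix. For Guibi-tang and Saengmaek-san at 20 they were 0.0559% and 0%. With total counts the count was 1 at 500 of Soyo-san against 20, 1 for Okbyeongpung-san and Saposhnikoviae Radix, and 1 each at 20 of Menthae Herba, Saposhnikoviae Radix and Soyo-san (2). The shares with total counts were 0.423% at 500 of Soyo-san against 20, and 0.174%, 0.551% and 0.487% at 20 in that order. DESeq2 gave 1 for the difference of Okbyeongpung-san and Saposhnikoviae Radix and 1 at 20 of Saposhnikoviae Radix, DESeq2 size factors 0 at 500 of Saengmaek-san against vehicle, and a fit without mitochondrial genes 0 there and 1 for that difference. DESeq2 called 2.42% of its genes tested at 20 of Saposhnikoviae Radix. At 500 of Saengmaek-san the shares were 0.562% with DESeq2 size factors and 0.55% without mitochondrial genes. For the differences between extracts no share per setting is given here.

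Leaving out single libraries gave 1 to 3 at 500 of Menthae Herba and 0 to 1 of Saengmaek-san against vehicle, 1 to 2, 1 to 3 and 1 to 2 at 500 against 20 of Guibi-tang, Soyo-san and Okbyeongpung-san, 1 to 3 and 0 to 1 for the differences of Guibi-tang with Saengmaek-san and of Okbyeongpung-san with Saposhnikoviae Radix, and 0 to 1 and 1 to 2 at 20 of Saengmaek-san and Soyo-san.

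The replicate block moved no count by over 1.5 times. Where the numbers are not shown to pair the libraries, it brought RELB at 500 against 20 of Guibi-tang to 0.43 (adjusted p = 0.0431, edgeR).

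CPM near 5 limit TNFAIP3 and NFKBIE, and 3 libraries a group limit every call near the threshold.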
